A study of Caenorhabditis elegans with 15 samples.

Results

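The count table of this series, made from young adult Caenorhabditis elegans, holds 207 loci that carry a serial name in place of a WormBase gene identifier, among 47111 rows in all. These 207 rows were taken from the table by their identifier alone, and none by its counts. Whether reads of these libraries were used to assemble the loci is not given in the sources used here. If they were, a locus may be in the table because it had reads in some of these libraries. The other 46904 rows carry WormBase identifiers. The animals belonged to 5 genotypes with 3 libraries each: puf-8(ok302), puf-8(ust221), labelled MUT-4A, puf-8(ust222), labelled MUT-4N, puf-8(ust223), labelled MUT-8G, and the wild type N2. The 3 codes are not interpreted here. All were grown at 20 °C on the bacterium Escherichia coli OP50 from synchronised first-stage larvae, and libraries were made from RNA bound by poly-T beads. The labels name no cultures for the replicates, so the p-values below measure the spread between libraries and that spread may be technical.

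A genome annotation records the genes that gene prediction and earlier transcript evidence could place. When reads are assembled without it, groups of reads that lie outside every recorded gene remain, and in other genomes such loci have turned out to be extended untranslated regions (UTRs), long noncoding RNAs, unrecorded coding genes, pseudogenes or copies of transposons. PUF-8, the protein mutated in these strains, is a Pumilio-family RNA-binding protein that acts on 3′ UTRs of mRNAs in the worm's germ line, where it is known for its roles in spermatocyte maintenance and in the choice between sperm and oocyte.

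The 15 libraries held 20969800 to 29352254 counts each, of which the loci took 0.023% to 0.0475%. The labels of the ok302 libraries were checked against puf-8 itself, which had 7, 11 and 3 counts there, against 2043, 3899 and 2267 counts in N2. The ust libraries had 737 to 5008 counts of puf-8, a range that holds those of N2. The labels of the ust and N2 libraries were therefore not checked in this way. Libraries N2 replicate 1 and ust222 replicates 1 and 3 stood apart from the others of their genotypes. A list of 33 sperm genes summed to 83.1 CPM (counts scaled to library size) in N2 replicate 1, and its mean log2(CPM + 0.5) was 0.05 and 0.01 in ust222 replicates 1 and 3, against 2.12 to 3.77 in the 12 libraries other than these 3. A list of 22 molting and larval cuticle genes summed to 1656 to 1984 CPM in ok302, 65.7 to 240 CPM in ust221, 123.5 CPM in ust222 replicate 2, 424 to 871 CPM in ust223, and 138 and 177 CPM in N2 replicates 2 and 3, with 2295 to 2370 CPM in the 3 libraries that stood apart. In ok302 the summed level of 10 male soma markers was 13.7 to 21.05 CPM, against 3.83 to 8.37 CPM in N2, and that of 20 oocyte genes was 5640 to 7559 CPM, against 12732 to 17465 CPM in N2. The part of these differences in the results on the loci was not tested, and in whole animals fewer cells of a type and less RNA per cell cannot be told apart.

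The loci were short and mostly gapped. Their summed model length ran from 200 to 3587 bases, with a median of 405 bases, against a median of 1103 bases for the protein-coding genes of the table. For 167 loci the model was shorter than the stretch of chromosome it covered, so that it holds at least 1 gap, as spliced transcripts have, and 40 loci were a single block. The longest stretch, at III:6563750-6575504, covered 11755 bases with a model of 2443 bases. On the strands as deposited, 106 loci were on the plus strand and 101 on the minus strand. The labels' protocol names no step that marks strand, so reads of a locus and of a gene on the other strand cannot be told apart.

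The loci were spread unevenly over the chromosomes. Chromosome X held 50 loci, II held 48, III held 35, I held 33, V held 26 and IV held 15, and the mitochondrial genome held 0. Relative to gene content, X had 1.79 loci and II had 1.36 loci per 100 protein-coding genes, while V had 0.521 and IV had 0.457. Among the 207 loci there were 9 pairs that overlapped each other.

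**Figure D1:**
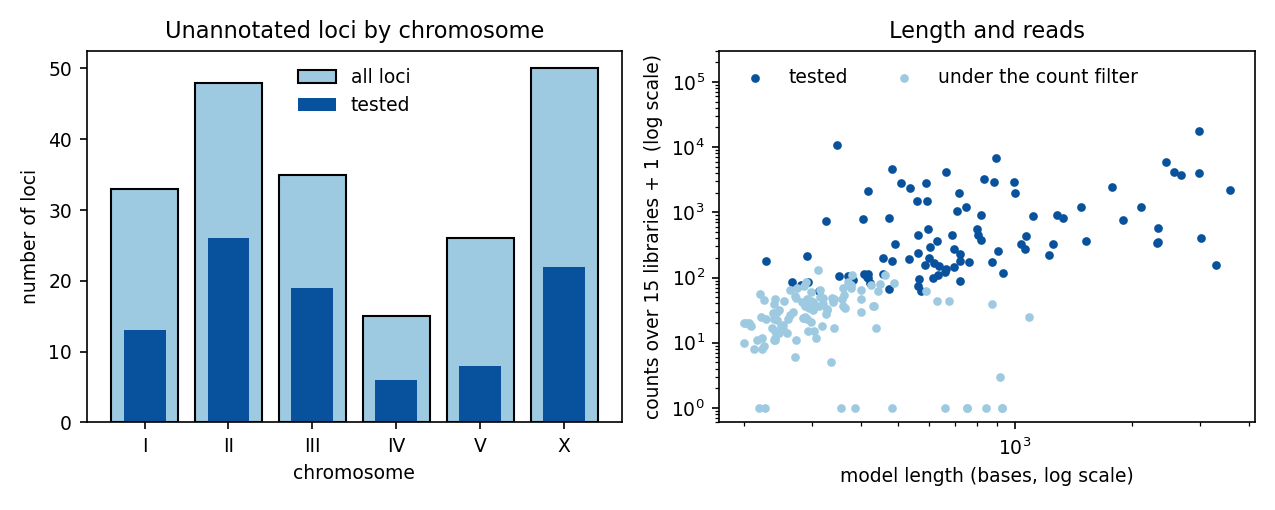
Left, bars give the number of the 207 loci on each chromosome, with the loci that passed the count filter in dark blue; X and II hold the most, with 50 and 48. Right, each point is a locus, with its model length in bases against its counts summed over 15 libraries plus 1, both on log scales; the 94 tested loci lie in the upper part, and 11 loci lie at 0 counts.

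Most loci lay close to a gene, yet none overlapped a gene of the same table. The distance to the nearest gene of the table ranged from 3 to 7269 bases with a median of 327 bases, and 150 of the 207 loci were within 1 kb of a protein-coding gene. That nearest coding gene was on the opposite strand for 115 loci and on the same strand for 92. On the same strand, 25 loci began within 1 kb beyond the 3′ end of a coding gene and 54 ended within 1 kb before the 5′ start of one. The gene nearest to the locus was protein-coding for 166 loci, a pseudogene for 21, of the class ncRNA for 13, a piRNA gene for 3, a lincRNA gene for 2, a miRNA gene for 1 and a snoRNA gene for 1.

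A later annotation, Ensembl release 115 on WBcel235, covers part of them. Of the 46817 genes it shares with the table, all were on the same chromosome and 69.1% had identical starts and ends, with no 2 Mb window below 42.5%, so its coordinates were read as those of the table. In it, 37 of the 207 loci overlapped a gene by at least 1 base, 23 on the same strand and 14 on the opposite strand only, and 170 overlapped none. Of the same-strand overlaps, 5 met coding sequence and both UTRs, 3 coding sequence alone, 5 a 3′ UTR alone and 4 a 5′ UTR alone. Another 2 met an exon of a noncoding gene or pseudogene, and 4 lay in an intron. Here 1 shared base was enough to meet a feature. Only 13 loci met one of the 109 reference genes that the table lacks, 11 of them on the same strand. One is III:483126-485927, of which 73.5% falls in the protein-coding gene F10C5.3, another is II:1892107-1892626, of which 88.7% falls in the long noncoding RNA gene C16C4.19, and X:1921579-1922379 lies wholly inside ZC53.22.

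The table's own descriptions give a protein domain for 19 loci and none for 188. The most frequent group, with 6 loci, was proteins of transposons, the mobile elements that move by a transposase or through reverse transcription. It holds a MULE transposase domain at III:13293522-13296635, reverse transcriptase domains at X:11292707-11294601 and X:17687847-17692997, DDE endonuclease domains at II:997702-998748 and IV:11190170-11190639, and a Tc5 transposase DNA-binding domain at V:19834905-19835630. Another 4 loci carry F-box associated or FTH domains, which occur in the large worm families of F-box proteins, the substrate adaptors of ubiquitin ligases. Domains of unknown function were given for 3 loci. A PIF1-like helicase, a peptidase of family M13, a major sperm protein domain, a Piwi domain, a serpentine chemoreceptor and a pentapeptide repeat were given for 1 locus each.

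Reads were few at most of the loci. The median locus had 67 counts over all 15 libraries together, 11 loci had 0 counts in every library, and 30 had under 15 counts in all. Each of the 11 overlaps another locus of the list. How reads in such overlaps were counted is not given in the sources used here, so their 0 counts need not mean a lack of reads. Reads from every library were found at 51 loci. The 8 loci with the highest mean level took 48.2% of the 120547 counts of the list, and the first of them took 14.6%.

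That first locus, III:6628270-6631530 on the plus strand, lies 1311 bases from pdfr-1, which encodes the receptor of the PDF neuropeptides. It reached 56.8, 77.7 and 64.5 CPM in ok302, 29.8, 43.0 and 68.9 CPM in ust221, 37.0, 49.5 and 41.6 CPM in ust222, 34.9, 41.7 and 44.1 CPM in ust223, and 34.4, 58.6 and 24.4 CPM in N2. Its libraries overlapped between ok302 and N2, and the log2 fold change of 0.76 ± 0.32 did not pass the test (edgeR, adjusted p = 0.105). Per kilobase of model, the highest level of the 8 belonged to III:1006745-1007139, a locus of 348 bases near the C-type lectin gene clec-150, at 86.5 CPM per kb. That locus had 50.2, 16.8 and 44.7 CPM in ust222 and 63.3, 14.2 and 15.3 CPM in N2, so that within these genotypes it was highest in the 3 libraries that stood apart.

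The other 6 of the 8 had means of 10.9 to 19.1 CPM over the 15 libraries. The locus at IV:1399545-1400497, 7 bases from the nuclear hormone receptor gene nhr-41, showed the same spread as the one near clec-150, with 15.6, 6.92 and 12.4 CPM in ust222 and 23.0, 3.90 and 7.09 CPM in N2. The MULE transposase locus near the nuclear pore gene npp-18 averaged 9.80 ± 0.524 CPM in ok302, 10.1 ± 2.34 CPM in ust221, 9.46 ± 3.04 CPM in ust222, 15.1 ± 2.84 CPM in ust223 and 11.9 ± 6.29 CPM in N2 (SD, n = 3 each). None of its 4 comparisons with N2 passed the test. Of the 8 loci with the highest level, only the one at III:314287-315350, described below, was called in any of the 7 comparisons.

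Summed over all 207 loci, the level was 414 ± 17.03 CPM in ok302, 326 ± 11.1 CPM in ust221, 312 ± 6.47 CPM in ust222, 281 ± 13.8 CPM in ust223 and 324 ± 39.7 CPM in N2 (SD, n = 3 each). The lowest ok302 library, at 399.9 CPM, lay above the highest N2 library, at 357 CPM. Without the 8 loci with the highest level, the sums were 236 ± 21.8 CPM in ok302 and 160 ± 13.1 CPM in N2. In the ok302 libraries 154 to 165 loci had at least 1 count, against 107 to 136 in the N2 libraries. The same counts over all rows of the table were not made, so this difference is not shown to be particular to the loci. These sums and counts cover loci that may have been assembled from these same libraries.

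Only loci with enough reads could be tested. The filter keeps a locus that reaches the required count in at least 3 libraries, and it kept 94 of the 207 loci and left out 113. A locus can pass it through a single genotype in which it is high, so counts and medians over the 94 describe those loci and do not stand for the 207. Each locus was tested inside the fit of all 17217 genes, and a locus was called at an adjusted p under 0.05. Fold changes are log2 values of the fit with their standard errors (SE).

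In puf-8(ok302) against N2, 17 of the 94 tested loci were called, 15 higher and 2 lower. Over all 17217 genes tested, 23.8% were called in this comparison, 8.45% higher and 15.4% lower. Set against this, 16% of the loci were called higher and 2.13% lower. The median log2 fold change was 0.69 for the loci and 0.10 for all genes. Values above 0 were found for 65 of the 94 loci, or 69.1%, against 53.1% of all genes. The 602 pseudogenes tested had a median of 0.71 with 76 called higher and 35 lower, and the 67 long intergenic noncoding RNAs tested had a median of 0.77 with 9 called higher and 0 lower. Those types were also low in level, with medians of 1.18 and 0.742 CPM, against 0.879 CPM for the loci and 9.38 CPM for protein-coding genes.

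**Figure D2:**
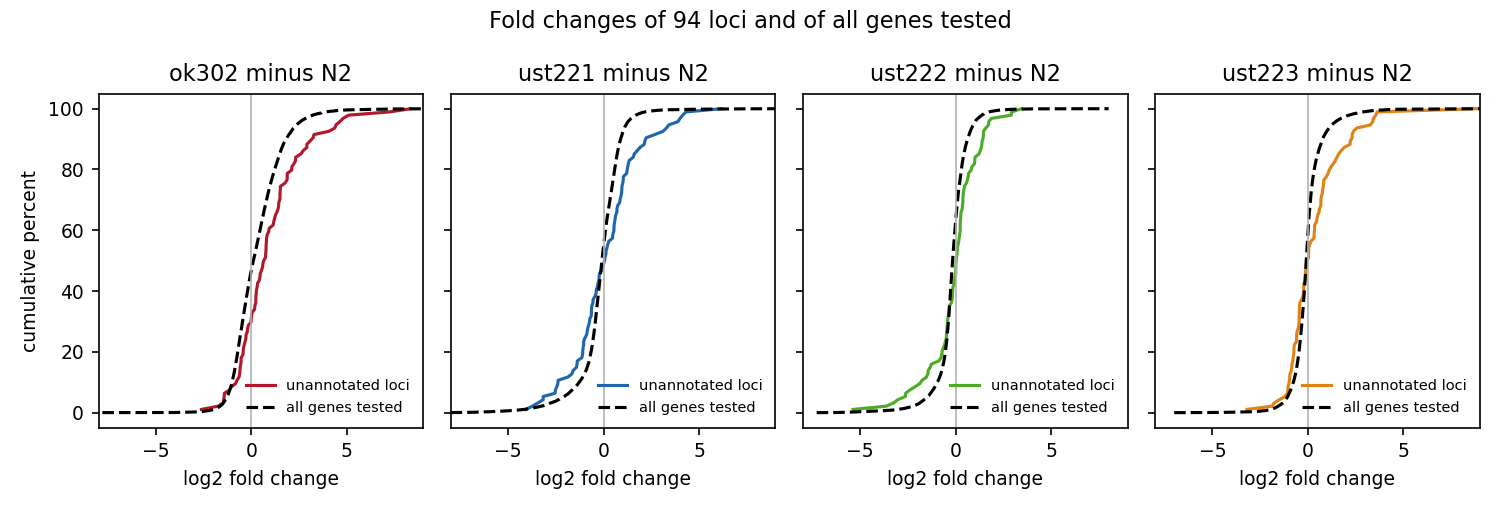
Each panel shows 1 comparison with N2, with the log2 fold change on the x axis and the cumulative percent of features at or below it on the y axis, for the 94 tested loci (coloured line) and for all 17217 genes tested (dashed line). In ok302 the line of the loci lies to the right, with a median of 0.69 against 0.10 for all genes.

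The locus with the largest change in ok302 was II:3172404-3174825 on the minus strand, whose model of 2324 bases carries a PIF1-like helicase domain. PIF1-family enzymes unwind DNA, and Helitron transposons encode a form of their own. Its counts were 40, 50 and 37 in ok302 and 48, 59 and 99 in ust223, against 0 in each of the 3 ust221, 3 ust222 and 3 N2 libraries. The genotypes with reads and those without did not overlap, and a single N2 library with 3 counts would have shown 0.107 to 0.162 CPM. The level was at least 40.1-fold higher in ok302 than in N2 and at least 58.0-fold higher in ust223 than in N2, computed against 3 counts over the 3 N2 libraries together. Both passed the test (edgeR, adjusted p = 0.00113 for ok302 and 0.00627 for ust223). With only the 6 libraries of ust223 and N2 in the fit, the adjusted p of ust223 was 0.0797.

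Its nearest coding gene, Y27F2A.10, lies 128 bases away and had 0 counts in all 15 libraries. The locus is on the chromosome of puf-8, at a distance of 4124 kb. Over the whole table, 14 rows had 0 counts in all N2 libraries and at least 10 in each ok302 library, 2 did so for ust221, 0 for ust222 and 6 for ust223. The annotated rows scl-20, C06H5.14, F59A6.11 and WBGene00014992 did so for both ok302 and ust223, as did the helicase locus. Among the 14 rows of ok302, 8 were on chromosome V and 4 on chromosome II, and 2 of the 14 were loci of this list.

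The second of them, II:1895443-1896058 on the plus strand, lies 4 bases from math-25, a gene of the worm's MATH-domain family. It had 25, 14 and 18 counts in ok302, 0, 1 and 0 in ust221, 0 in every ust222 library, 4, 0 and 0 in ust223, and 0 in every N2 library. The level in ok302 was at least 17.99-fold higher than in N2 (edgeR, adjusted p = 0.0193). The adjusted p reached 0.0616 at most over the alternatives, and the call was lost with DESeq2, without N2 replicate 2 and without N2 replicate 3. In Ensembl release 115, 36.0% of it lies within the gene C46F9.5, whose coding sequence it meets.

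The locus at X:121199-125043, on the minus strand near the F-box gene fbxa-16, showed a graded pattern. It had 4.85, 4.26 and 4.82 CPM in ok302, 1.69, 0.893 and 1.77 CPM in ust221, 0.298, 0 and 0.129 CPM in ust222, 1.35, 1.40 and 1.20 CPM in ust223, and 0, 0.322 and 0.0541 CPM in N2. All ok302 libraries lay above all others, and the ust221 and ust223 libraries lay between those of ok302 and those of ust222 and N2. Against N2 the log2 fold change was 5.09 ± 0.99 in ok302 (edgeR, adjusted p = 0.00299) and 0.16 ± 0.99 in ust222 (0.973). The values of 3.42 ± 0.95 in ust221 (0.0757) and 3.28 ± 0.94 in ust223 (0.138) did not pass. In Ensembl release 115, 28.1% of the locus lies opposite the gene fbxa-16 and meets its 3′ UTR. The gene fbxa-16 itself had 0 counts in all 3 ok302 libraries and at most 2 in any library.

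At III:2264590-2266045, a locus with an FTH domain, ok302 was again highest and N2 lowest. It stood at 8.41, 5.31 and 5.998 CPM in ok302, 2.71, 2.51 and 4.37 CPM in ust221, 1.60, 2.70 and 1.55 CPM in ust222, 3.20, 3.62 and 3.16 CPM in ust223, and 0.430, 1.32 and 1.52 CPM in N2. The ok302 libraries lay above all others, and the log2 fold change against N2 was 2.59 ± 0.47 (edgeR, adjusted p = 0.00201). This call and that of the locus near fbxa-16 held under all 14 alternatives run for them.

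The DDE endonuclease locus at II:997702-998748, near the F-box gene fbxb-29, had 29, 37 and 21 counts in ok302, 0 in every ust221 library, 4, 0 and 0 in ust222, 4, 7 and 12 in ust223, and 3, 0 and 0 in N2. DDE domains are the catalytic part of many cut-and-paste transposases. Its ok302 libraries lay above all others, with a log2 fold change of 4.63 ± 1.29 against N2 (edgeR, adjusted p = 0.0236). The call was lost when any ok302 library, N2 replicate 2 or N2 replicate 3 was left out, with adjusted p up to 0.0778.

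The other transposon-domain loci did not follow it together. Of the 4 with enough reads to be tested, this locus alone was called in ok302 against N2. The reverse transcriptase locus at X:17687847-17692997 had 141, 141 and 196 counts in ok302, against 111, 164 and 103 in N2, and its libraries overlapped. The other reverse transcriptase locus, X:11292707-11294601, had 77, 74 and 98 counts in ok302, against 82, 45 and 8 in N2, and overlapped too. The Tc5 transposase locus at V:19834905-19835630 did not pass the count filter and had 6, 6 and 27 counts in ok302, 3, 0 and 0 in ust223 and 0 in all 9 libraries of ust221, ust222 and N2.

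The locus at III:5220375-5220744, of 326 bases, changed together with its neighbour in ok302. It had 7.57, 4.15 and 6.52 CPM in ok302, 0.136, 0 and 0 CPM in ust221, 0, 1.67 and 0 CPM in ust222, 3.36, 2.80 and 1.89 CPM in ust223, and 0, 0.465 and 0.162 CPM in N2. All ok302 and ust223 libraries lay above all others. In ok302 the log2 fold change against N2 was 4.80 ± 1.52 (edgeR, adjusted p = 0.0361), and in ust223 it was 3.62 ± 1.46 (0.382). The call in ok302 was lost without any ok302 library or N2 replicate 3. Its neighbour ZC155.2, 282 bases away on the opposite strand, had 67, 79 and 51 counts in ok302, against 14, 23 and 12 in N2, and rose by a log2 fold change of 1.93 ± 0.51 (edgeR, adjusted p = 0.0149). In ust223, ZC155.2 had 27, 20 and 18 counts, which overlapped those in N2.

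Another locus, II:1080913-1081460 near K02E7.1, was called in 2 alleles. It had 21, 43 and 12 counts in ok302, 20, 15 and 14 in ust221, 9, 9 and 6 in ust222, 15, 22 and 8 in ust223, and 2, 1 and 0 in N2, so that each of the 12 mutant libraries lay above each N2 library. The log2 fold change against N2 was 4.43 ± 0.86 in ok302 (edgeR, adjusted p = 0.00286) and 4.31 ± 0.86 in ust221 (0.029). In ust223 it was 3.56 ± 0.85 (0.0621) and in ust222 2.91 ± 0.86 (0.492), neither of which passed. The ok302 call held under all 13 alternatives, while that of ust221 was lost under 5 of 13, with adjusted p up to 0.184.

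**Figure D3:**
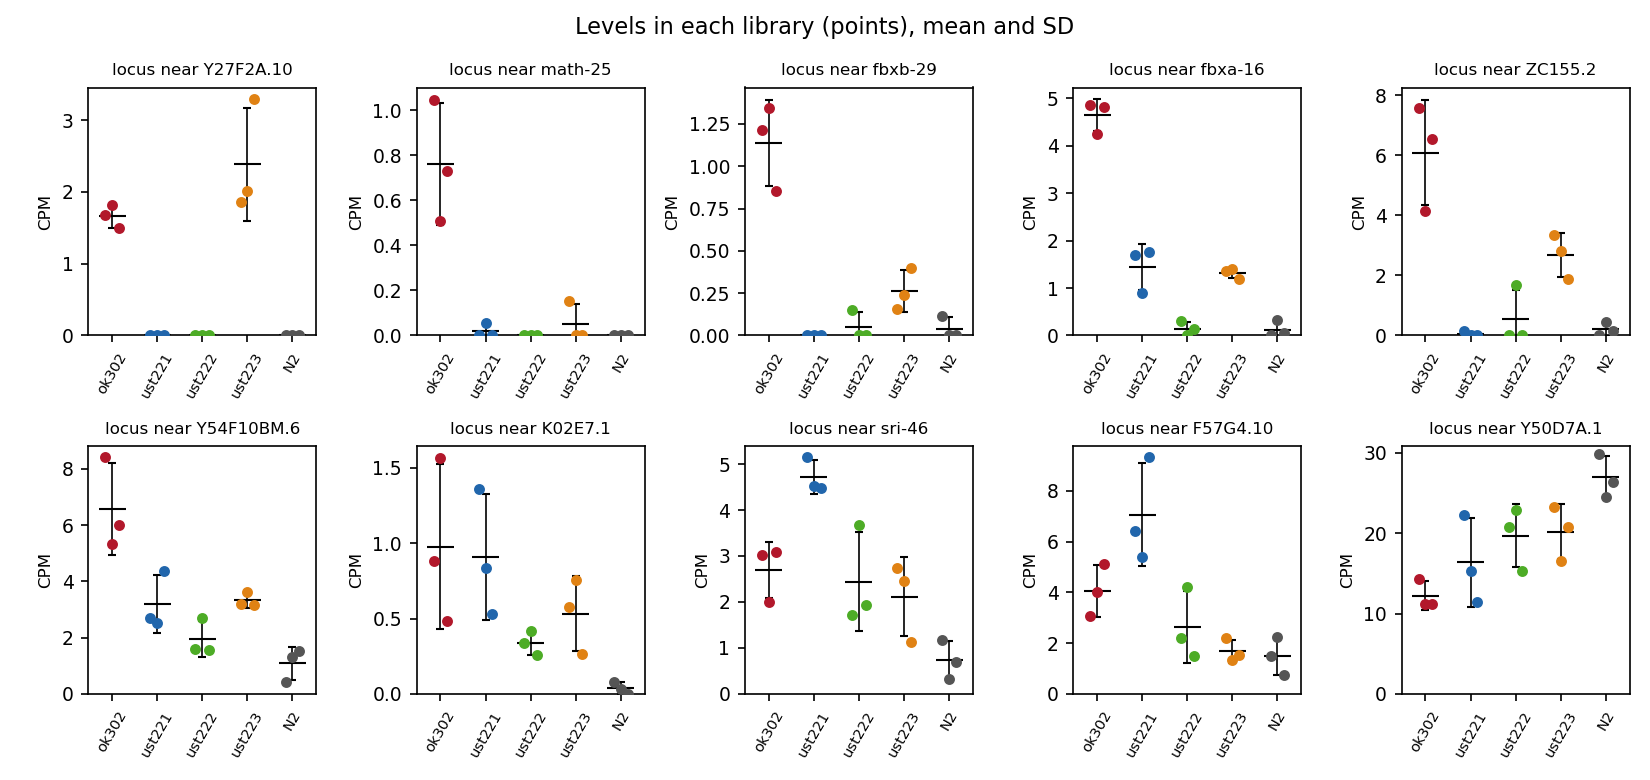
Each panel is 1 locus, named by its nearest coding gene, with the level in CPM on the y axis, a point for each of the 15 libraries, and the mean and SD of each genotype (n = 3). In the top row the ok302 libraries lie above the N2 libraries at every locus, and only the locus near Y27F2A.10 has ust223 libraries above ok302. The locus near Y50D7A.1 is the one that is lower in ok302, at 11.1 to 14.3 CPM against 24.5 to 29.9 CPM in N2.

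Of the remaining loci that were higher in ok302, the one at II:9483270-9483889 near T19H5.4 had 22, 31 and 14 counts in ok302, against 0, 5 and 3 in N2. Its log2 fold change was 2.90 ± 0.93 (edgeR, adjusted p = 0.0383), and the call was lost under 5 of 13 alternatives. The locus at I:10828462-10829461, a single block of 1000 bases, averaged 10.3 ± 1.07 CPM in ok302 and 2.37 ± 1.42 CPM in N2 (SD, n = 3 each). Its log2 fold change was 2.12 (edgeR, adjusted p = 0.0248), and the call held under all 14 alternatives. The gene C35E7.5, 8 bases away on the opposite strand, had 207, 237 and 87 counts in ok302, against 1103, 437 and 197 in N2, which overlapped. A locus with a major sperm protein domain, V:5350699-5351533, had 27, 7 and 14 counts in ok302, 8, 15 and 4 in ust221, 0 in every ust222 library, 4, 1 and 0 in ust223, and 0, 2 and 0 in N2. Major sperm proteins form the cytoskeleton of nematode sperm. Its call in ok302 was lost under 6 of 12 alternatives, with adjusted p up to 0.114. The log2 fold changes of all 15 loci called higher ranged from 1.25 to 8.34.

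The locus at III:7958389-7959818 changed against the direction of its neighbour. It averaged 3.91 ± 1.95 CPM in ok302 and 1.64 ± 0.431 CPM in N2 (SD, n = 3 each), and rose by a log2 fold change of 1.25 ± 0.43 (edgeR, adjusted p = 0.0488), a call lost under 9 of 14 alternatives, with adjusted p up to 0.286. The coding gene C29E4.11, 275 bases away on the same strand, had 71, 70 and 72 counts in ok302, against 212, 253 and 158 in N2, and fell by 1.62 on the log2 scale (SE 0.26, edgeR, adjusted p = 0.000927).

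The 2 loci that fell in ok302 each lie next to a gene that fell as well. At III:314287-315350 the level was 14.3, 11.2 and 11.1 CPM in ok302, 22.3, 15.3 and 11.4 CPM in ust221, 20.7, 22.9 and 15.3 CPM in ust222, 23.3, 16.5 and 20.7 CPM in ust223, and 29.9, 24.5 and 26.4 CPM in N2. All N2 libraries lay above all ok302 libraries, and the log2 fold change was -1.14 ± 0.26 (edgeR, adjusted p = 0.00765), a call that held under all 14 alternatives. Y50D7A.1, which lies 21 bases away on the other strand, had 138, 159 and 127 counts in ok302, against 378, 263 and 245 in N2, and changed by -1.16 ± 0.32 (edgeR, adjusted p = 0.019). In Ensembl release 115, 20.9% of the locus lies opposite that gene and meets its 3′ UTR, so without strand their reads cannot be told apart there.

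The other locus that fell, I:5978650-5981754, spans 3105 bases and ends 24 bases from simr-1, which encodes a protein of the small RNA pathways in germ granules. It had 11, 13 and 6 counts in ok302, 22, 23 and 19 in ust221, 17, 3 and 2 in ust222, 46, 25 and 48 in ust223, and 110, 19 and 43 in N2. All ok302 libraries lay below all N2 libraries, which themselves differed widely. The log2 fold change was -2.62 ± 0.78 (edgeR, adjusted p = 0.0282), and the call was lost without N2 replicate 1, N2 replicate 3 or any ok302 library. The gene simr-1 had 895, 886 and 831 counts in ok302, against 1084, 2571 and 1987 in N2, with a log2 fold change of -1.23 ± 0.28 (edgeR, adjusted p = 0.00667). Inside the span of the plus-strand locus lie I:5978650-5979492, I:5980379-5981086 and I:5981165-5981594, minus-strand loci of the list with 0 counts each. How reads in the shared stretches were counted is not given in the sources used here.

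Locus and neighbour moved only loosely together in ok302 against N2. For the 75 loci whose nearest coding gene was also tested, the correlation of the log2 fold changes of locus and gene in ok302 against N2 was 0.267, across loci that share the same 6 libraries. The same value for 16305 pairs of adjacent coding genes was 0.256. Of the 10 called loci with a tested neighbour, 7 had a neighbour with the same sign, 3 of these neighbours were called in the same direction, and 1 neighbour was called in the opposite direction. Over the 7 comparisons the correlation for the 75 loci ran from -0.042 in ust223 against N2 to 0.443 in ust221 against ok302. For adjacent coding genes it was 0.146 and 0.230 in these comparisons.

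In ust221 against N2, 4 of the 94 loci were called, all higher, where 1.79% of all genes were called, 1.03% higher and 0.761% lower. The locus near K02E7.1 was one of them. At II:665447-666791, 2715 bases from the chemoreceptor gene sri-46, the level was 5.15, 4.52 and 4.48 CPM in ust221, against 1.17, 0.322 and 0.704 CPM in N2, and the log2 fold change was 2.68 ± 0.53 (edgeR, adjusted p = 0.0278). The ust221 libraries lay above those of all other genotypes. In ok302 this locus had 3.01, 2.00 and 3.08 CPM and a log2 fold change of 1.87 ± 0.52 against N2 (edgeR, adjusted p = 0.0191). Each call of this locus was lost under 5 of 14 alternatives, with adjusted p up to 0.198 in ust221 and 0.125 in ok302.

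The locus at V:17631171-17633878 reached 6.44, 5.41 and 9.34 CPM in ust221 and 3.05, 4.00 and 5.11 CPM in ok302, against 1.49, 2.25 and 0.758 CPM in N2. Neither mutant overlapped N2, and the log2 fold changes were 2.23 ± 0.49 in ust221 (edgeR, adjusted p = 0.039) and 1.42 ± 0.48 in ok302 (0.0467). The ust221 call was lost under 7 of 14 alternatives, with adjusted p up to 0.198, and the ok302 call under 8 of 14, with adjusted p up to 0.164. The coding gene nearest to it, F57G4.10, had 0 counts in all 15 libraries. The 4th locus, V:3330011-3330556, had 15, 47 and 11 counts in ust221, 6, 7 and 10 in ok302, 1, 0 and 13 in ust222, 1 in each ust223 library, and 0, 1 and 0 in N2, with a log2 fold change of 6.18 ± 1.45 (edgeR, adjusted p = 0.0491), lost under 6 of 13 alternatives. The count of 4 in ust221 became 0 when N2 replicate 2, N2 replicate 3, ust221 replicate 1 or ust221 replicate 2 was left out. The medians were 0.06 for the loci and -0.09 for all genes.

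In ust222 against N2, 0 of the 94 loci were called by edgeR and 0 by DESeq2, where edgeR called 0.00581% of all genes. At an unadjusted p under 0.05 edgeR had 11 of the 94 loci, or 11.7%, against 7.99% of all genes. Leaving out N2 replicate 1 gave 4 calls and leaving out ust222 replicate 2 gave 3. The first of these fits keeps the libraries that stood apart in ust222 alone, and in the second both ust222 libraries are of that kind. The median log2 fold change was 0.03 for the loci and -0.17 for all genes.

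In ust223 against N2, 1 of the 94 loci was called, the helicase locus near Y27F2A.10, where 1.35% of all genes were called, 1.13% higher and 0.227% lower. At an unadjusted p under 0.05 it was 16 of the 94 loci, or 17.02%, against 9.79% of all genes. The medians were 0.0006 for the loci and -0.08 for all genes. Without N2 replicate 1, the count was 4.

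Each ust allele was also compared with ok302, and every locus called there was lower in the ust allele. In ust221 against ok302, 5 loci were called lower and 0 higher, where 16.7% of all genes were called, 10.9% higher and 5.85% lower. In ust222 against ok302, 11 were called lower and 0 higher, where 16.9% of all genes were called, 7.62% higher and 9.25% lower. In ust223 against ok302, 3 were called lower and 0 higher, where 17.7% of all genes were called, 12.2% higher and 5.58% lower. The median log2 fold changes of the loci were -0.51, -0.60 and -0.68 in ust221, ust222 and ust223 against ok302, and those of all genes were -0.11, -0.12 and -0.16.

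The helicase locus was at least 32.97-fold lower in ust221 than in ok302 (edgeR, adjusted p = 0.00544) and at least 39.8-fold lower in ust222 (0.00361). The DDE endonuclease locus was at least 22.6-fold lower in ust221 than in ok302 (edgeR, adjusted p = 0.016). For the locus near fbxa-16, ust222 fell by 4.93 on the log2 scale against ok302 (SE 0.98, edgeR, adjusted p = 0.00716), and for the FTH-domain locus by 1.75 (SE 0.46, adjusted p = 0.0213). The call of the FTH-domain locus was lost with 12 libraries, without ust222 replicate 1 or 3 and without ok302 replicate 1, with adjusted p up to 0.08, and that of the DDE endonuclease locus without ust221 replicate 1 or 2, with adjusted p up to 0.0622.

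Several loci were called between a ust allele and ok302 without a call of either against N2. At X:15778585-15780403, near Y7A5A.3, the level was 3.51, 3.25 and 3.26 CPM in ust223 and 5.15, 3.91 and 5.16 CPM in ust221, against 11.7, 10.4 and 12.4 CPM in ok302, while N2 spread over 10.3, 6.62 and 2.44 CPM. Neither ust allele overlapped ok302, with log2 fold changes of -1.78 ± 0.40 in ust223 (edgeR, adjusted p = 0.00948) and -1.28 ± 0.40 in ust221 (0.0434). The first held under all 14 alternatives, and the second was lost under 8 of 14, among them each fit without a library of either genotype.

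At III:7865388-7865974, 82 bases from the transporter gene slc-17.3, ust222 had 1, 0 and 0 counts, against 18, 23 and 10 in ok302, 15, 15 and 8 in ust221, 13, 16 and 17 in ust223, and 6, 8 and 3 in N2. The ust222 libraries lay below those of every other genotype. The log2 fold change of ust222 against ok302 was -5.16 ± 0.92 (edgeR, adjusted p = 0.0047), and it passed under all 12 alternatives run for it. At I:6629246-6629697, a locus that overlaps the 3′ UTR of mctp-1 in Ensembl release 115, ust222 had 0 counts in every library, against 13, 20 and 11 in ok302, and was at least 13.8-fold lower (edgeR, adjusted p = 0.0297). The call was lost with 12 libraries, without ust222 replicate 1 or 3 and without ok302 replicate 2, with adjusted p up to 0.0807. The gene mctp-1 itself was lower in ust222 than in ok302, by 1.90 on the log2 scale (SE 0.53, edgeR, adjusted p = 0.0285).

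The locus at II:2018884-2019651 lies within an intron of the MATH- and BTB-domain gene bath-21 in Ensembl release 115. It had 9, 5 and 7 counts in ust222, against 74, 22 and 55 in ok302, and a log2 fold change of -2.79 ± 0.70 (edgeR, adjusted p = 0.0181), a call lost without ust222 replicate 1 or ok302 replicate 1. The long noncoding RNA locus near math-9, II:1892107-1892626, had 18, 26 and 18 counts in ust223, against 60, 66 and 58 in ok302, with a log2 fold change of -1.73 ± 0.51 (edgeR, adjusted p = 0.0335). Its ust223 libraries were the lowest of the 15, and the call was lost whenever a ust223 or ok302 library was left out. At X:11306011-11306989 there were 39, 29 and 16 counts in ust223, against 54, 67 and 113 in ok302 (edgeR, adjusted p = 0.048). The 2 genotypes did not overlap, and this call was lost under 9 of 14 alternatives, among them each fit without a library of either genotype.

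A locus that lies wholly opposite the gene tbc-14 and meets its 3′ UTR in Ensembl release 115, II:13436923-13437458, had the smallest changes that were called. It averaged 4.91 ± 0.510 CPM in ust221, 5.11 ± 0.439 CPM in ust222 and 8.67 ± 1.31 CPM in ok302 (SD, n = 3 each). The log2 fold changes were -0.82 ± 0.25 in ust221 (edgeR, adjusted p = 0.0383) and -0.76 ± 0.25 in ust222 (0.0488) against ok302, and both were lost whenever 1 library of either genotype was left out. The call was lost under 8 of 14 alternatives in ust221 and under 12 of 14 in ust222, where the log2 fold change ranged from -0.85 to -0.37.

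**Figure D4:**
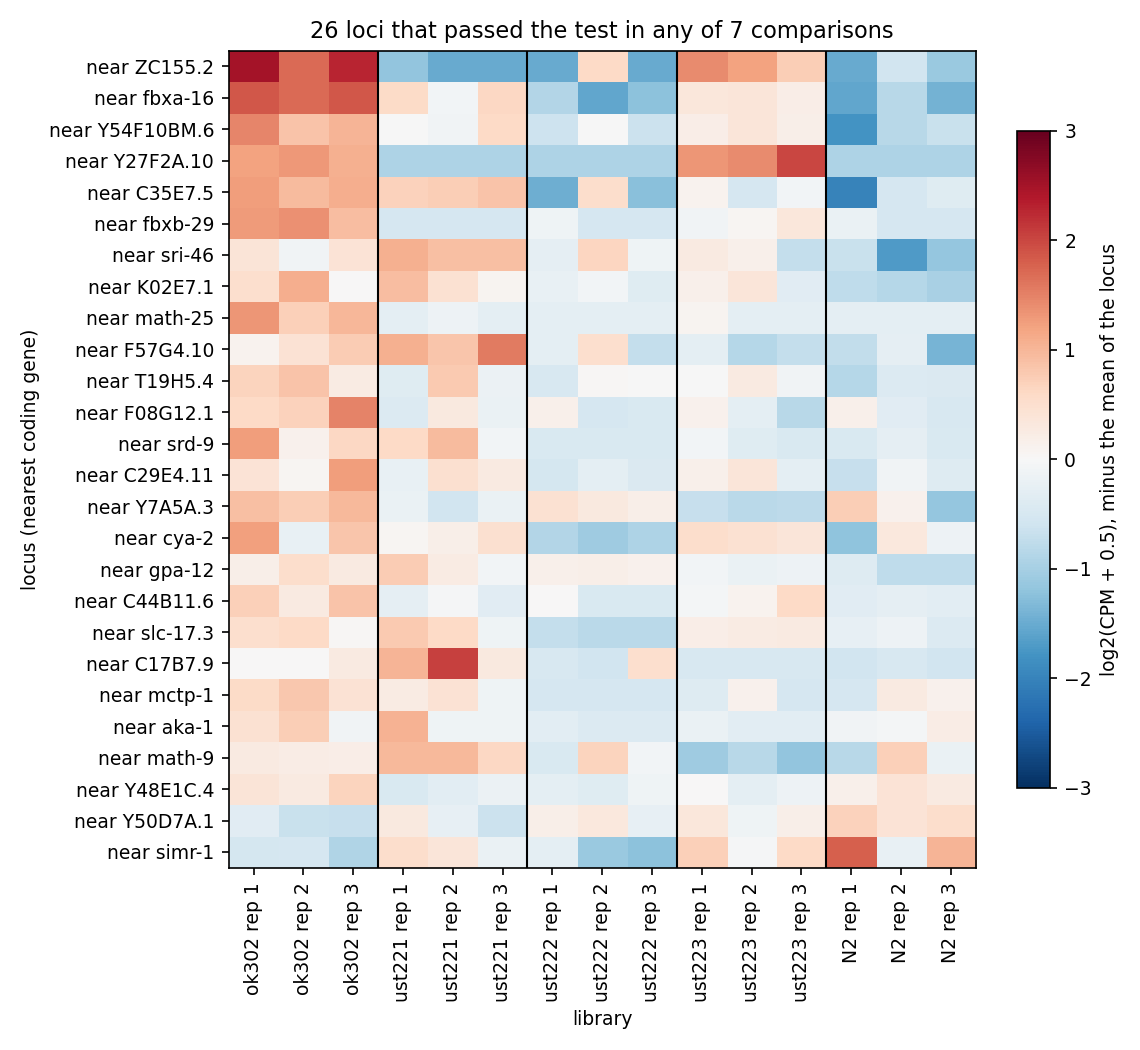
Rows are the 26 loci called in any of the 7 comparisons, named by their nearest coding gene, and columns are the 15 libraries. Colour gives log2(CPM + 0.5) minus the mean of the locus over all libraries, with red above and blue below it. Most rows are reddest in ok302, the locus near Y27F2A.10 is red in ok302 and ust223 only, and the bottom rows, near Y50D7A.1 and simr-1, are reddest in N2.

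Across the 7 comparisons 26 loci were called, and 18 of them were called in an allele against N2. That is 27.7% and 19.1% of the 94 tested loci, where 36.8% and 24.6% of all genes were called at least once in the same comparisons. Those called were 10 of the 26 tested loci on chromosome II, 6 of 19 on III, 4 of 22 on X, 3 of 13 on I, 3 of 8 on V and 0 of 6 on IV. A protein domain was given for 4 of the 26, and 8 overlapped a gene in Ensembl release 115.

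The libraries that stood apart weighed on individual loci. At III:483126-485927, which overlaps F10C5.3, the counts were 516, 53 and 453 in ust222 and 723, 50 and 21 in N2. At II:4788889-4789590 the levels were 0.037, 2.09 and 0 CPM in ust222 and 0, 5.47 and 7.68 CPM in N2, and at IV:7053524-7054270 the counts were 1, 78 and 2 in ust222 and 1, 183 and 112 in N2. These 3 loci were picked after their values were seen. In each, N2 replicate 1 and ust222 replicates 1 and 3 lay together on 1 side of the other 3 libraries of these genotypes. The same held for 14 of the 94 loci on the high side and 15 on the low side, or 14.9% and 15.96%, against 24.3% and 38.5% of all genes.

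With those 3 libraries left out of the fit, 144 loci could be tested and 38 were called in ok302 against N2, 32 higher and 6 lower, including 16 of the 17 above. Of all genes, 49.9% were then called. The medians were 0.99 for the loci and 0.39 for all genes, and in this fit N2 has 2 libraries and ust222 has 1. The count filter follows the smallest genotype, so here it asks for the required count in only 1 library in place of 3. The loci tested are therefore not the same set as above.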

How the data were processed

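The deposited file is a table in which the authors give whole-number read counts for each gene and library, together with coordinates, strands, lengths and descriptions. Its libraries sum to different totals. The submitters' processing notes list HISAT2 2.0.5. The sources used here do not give the genome build, the program and strand setting behind the counts, the assembler behind the 207 loci, or whether these libraries were used to assemble them. Counts were tested with the quasi-likelihood test of edgeR 4.0.16 (glmQLFit, glmQLFTest; R 4.3.3), with 1 coefficient for each genotype, on 17217 genes kept by filterByExpr, with TMM scaling and Benjamini-Hochberg adjustment over all of them. A common biological coefficient of variation of 0.477 was estimated. The SE of a log2 fold change is its size over the root of its F value, and CPM uses TMM-scaled library sizes. The fit was also run on counts simulated from the levels and spreads estimated here, over all genes tested. That run was not read out for the loci apart, so it does not measure what the test can find among them. A fold against a genotype with 0 counts was computed against 3 counts over its 3 libraries, which covers counting error only. Alternatives were RLE factors, library totals, DESeq2 1.42.0, other count filters, the replicate number as a block, 12 libraries, 6 libraries and leaving out each library. Replicate numbers were not treated as pairing the libraries.

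Loci were placed against the genes of the same table and against the Ensembl annotation. Named loci are, per comparison and direction, up to 6 called loci with the largest fold change, a mean of at least 10 counts and no overlap between libraries; the 8 with the highest level; and those with 0 counts in 1 genotype and at least 10 in every library of another. Others named by domain or as further called loci were chosen after their values were seen. The members and gene lists were chosen with earlier results of these data known. No genome sequence was used, so none is printed.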

Additional observations from a re-analysis of the deposited data

How the results depend on the processing

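None of the 41 calls on loci turned in direction under the alternatives in which its locus was tested: 386 refits passed again and 167 kept the direction without passing. The counts of called loci moved more. In ok302 against N2 the count of 17 was 10 with a filter of CPM above 1 in 3 libraries, 38 with 12 libraries and 9 with only 6; with 1 library left out it ranged from 7 to 21, and was 7 without N2 replicate 3 or ok302 replicate 1 and 9 without ok302 replicate 2 or 3. In ust221 against N2 the count of 4 was 7 with library totals, 2 with the CPM filter, 12 with 12 libraries, 0 with 6 and 15 with DESeq2, and 0 to 5 with 1 library left out. In ust222 against N2 it ranged from 0 to 4 with 1 library left out. In ust223 against N2 the count of 1 was 2 with RLE, 2 with library totals, 2 with the CPM filter, 13 with 12 libraries, 0 with 6 and 5 with DESeq2, and 1 to 4 with 1 library left out. Against ok302, the count of 5 in ust221 was 31 with 12 libraries, 19 with 6 and 10 with DESeq2, and 1 to 4 with 1 library left out; the count of 11 in ust222 was 5 with the CPM filter, 21 with 12, 6 with 6 and 19 with DESeq2, and 6 to 20 with 1 left out, being 6 without ust222 replicate 1 or ok302 replicate 1 and 20 without ust222 replicate 2; the count of 3 in ust223 was 6 with RLE, 6 with the CPM filter, 30 with 12, 29 with 6 and 12 with DESeq2, and 1 to 2 with 1 left out. The 6-library and 12-library fits use fewer libraries, and the count filter follows the smallest genotype in each fit. It asks for the required count in 1 library in the 12-library fit and in 2 with 1 library left out. The cause of each shift was not tested.

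The labels give no meaning to the replicate numbers, and in no comparison made here did every same-numbered pair correlate above 0.1, although all 3 pairs of ust221 and ust223 did, at 0.138 to 0.318. Of 30 same-numbered pairs, 7 had correlated deviations above 0.1, over a range of -0.64 to 0.785, and 10 of 15 libraries were closest to one of their own number. With the replicate number as a block, the counts were 2 in ust221 and 2 in ust223 against N2 and 3 in ust221 against ok302, and within 1.5 times the original in the other comparisons.

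Without a count filter 196 loci were tested, and with CPM above 1 in 3 libraries 57. With the larger part of a locus required to lie in a gene, 24 of the 37 overlaps were left. Scaling by library totals moved the median log2 fold change of all genes from 0.10 to 0.30 in ok302 against N2 and from 0.69 to 0.89 for the loci. In ust221 against N2 it turned the median of the loci from 0.06 to -0.16, beside -0.34 for all genes. The median locus had 67 counts over 15 libraries, and the size of change that such counts could show was not measured.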
